A study of Homo sapiens with 6 samples.

Results

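The DNA replication and S phase genes are 43 genes whose products load, start and run the replication fork, supply its nucleotides and rebuild chromatin behind it. They were picked by symbol, from knowledge of the pathway and with earlier results of these data known, and all 43 were found among the 56638 rows of the count table. All 43 also passed the filter on low counts, so they make up 43 of the 13490 genes tested. Counts came from MOLM-13, a human acute myeloid leukaemia cell line of monocytic type with a KMT2A-MLLT3 fusion. One group of 3 libraries was grown for 24 h with 2 µM UC-764864 (UC64 in the labels), named in the series title as acting against UBE2N. UBE2N builds ubiquitin chains in innate immune signalling and in DNA damage tolerance at the fork. The other group of 3 libraries was given DMSO, the control. All libraries come from the same line, and the labels do not say whether those of a group were separate cultures. The p-values therefore reflect library-to-library spread, which may be technical. The comparison asks how transcript levels differed between the treatments.

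Eukaryotic replication begins in G1, when the origin recognition complex with CDC6 and CDT1 loads the MCM2-7 helicase onto DNA as an inactive double ring. At the start of S phase CDC45 and the GINS complex join MCM2-7, and MCM10 helps to switch the helicase on. Polymerase alpha with primase then lays down primers, the RFC clamp loader places the PCNA ring, polymerases delta and epsilon extend, and RPA covers the single strands. Many of these genes are activated by E2F transcription factors as cells leave G1, and an unsynchronised culture of dividing cells holds cells in S phase at all times.

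Libraries held 16136156 to 25014437 counts, so every member was measured far above the count of 3 taken as the floor (0.123 to 0.198 CPM, which are counts scaled to a common library size). Myeloid markers were present, with 10 of 11 above 1 CPM, while 0 of 9 stromal or epithelial markers in the rows kept were, and of 9 lymphoid markers NCAM1 alone. COL3A1, KRT5, KRT19, CD3G and MS4A1 were at 0. The summed level of the myeloid list was 6515 to 7549 CPM in UC-764864 libraries and 4310 to 4649 CPM in DMSO libraries. That of the lymphoid list was 46.1 to 46.9 and 41.7 to 43.9 CPM, and of the stromal and epithelial list 0.368 to 0.901 and 1.02 to 1.25 CPM. The part of these differences in the results on replication genes was not tested. UBE2N itself had a log2 fold change of −0.25 that missed the threshold (edgeR adjusted p = 0.156), and an inhibitor of the protein need not change its transcript. In bulk RNA, fewer or more cells in S phase and less or more RNA per cell cannot be told apart. DMSO library UDI0055 is at 0 in 3799 rows of the table in 2 unbroken runs. No member lies in them, and they were left out of the fit. UC-764864 library UDI0052 and DMSO library UDI0056 stood apart in base composition: GC-rich genes took 19.7% and 19.1% of their counts, against 22.6% to 25.0% in the other 4. Each treatment has 1 of these low-GC libraries. Results are given below with a term for these libraries, without them, and with the GC trend of every library removed. The last also removes any difference between the treatments that follows GC content.

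The promoters of 37 of the 43 members are in the RefSeq table of 300-base windows used here (GRCh38.p14, 250 bases before to 50 after a start); MCM4, MCM5, GINS4, POLD3, RPA2 and RPA3 are not. The windows were searched on both strands for an E2F-type site, spelled TTTCCCGC, TTTGGCGC, TTTCGCGC or TTTGCCGC. At least one window of 17 of the 37 members (45.9%) held such a site, against 3.99% of the 27305 genes in the table. By window, the shares were 18 of 47 (38.3%) and 3.31%. The CCAAT box, another frequent promoter element, was in 55.3% of member windows and 34.6% of all windows. Shown are the 160 bases before the start of 5 members with such a site: MCM6, GINS2 and POLA2, whose transcripts were called higher after UC-764864, and RFC3 and CDT1, which were not. They lie at chr2:135876444-135876603 (minus strand), chr16:85688955-85689114 (minus strand), chr11:65261802-65261961, chr13:33817989-33818148 and chr16:88803629-88803788 (plus strand), and capitals mark the E2F-type sites, read 5′ to 3′ toward the gene.
MCM6: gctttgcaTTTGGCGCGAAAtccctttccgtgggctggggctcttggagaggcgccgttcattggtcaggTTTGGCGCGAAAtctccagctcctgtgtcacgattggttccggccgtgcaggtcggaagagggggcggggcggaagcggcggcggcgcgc
GINS2: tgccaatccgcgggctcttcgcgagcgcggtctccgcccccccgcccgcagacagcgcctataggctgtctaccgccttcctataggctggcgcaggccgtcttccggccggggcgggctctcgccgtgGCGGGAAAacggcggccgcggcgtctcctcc
POLA2: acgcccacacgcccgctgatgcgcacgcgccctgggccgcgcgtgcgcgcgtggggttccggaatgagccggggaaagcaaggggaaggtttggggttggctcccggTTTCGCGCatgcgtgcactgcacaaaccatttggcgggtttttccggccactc
RFC3: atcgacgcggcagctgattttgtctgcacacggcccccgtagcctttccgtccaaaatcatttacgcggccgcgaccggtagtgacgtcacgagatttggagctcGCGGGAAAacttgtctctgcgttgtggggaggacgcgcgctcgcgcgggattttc
CDT1: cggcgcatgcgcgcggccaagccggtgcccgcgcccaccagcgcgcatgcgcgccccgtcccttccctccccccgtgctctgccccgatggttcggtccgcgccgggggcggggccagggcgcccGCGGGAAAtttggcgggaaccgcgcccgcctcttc
Capitals that read GCGGGAAA are TTTCCCGC on the other strand. In MCM6 the 2 capital runs are each a site on one strand overlapping a site on the other, starting at −152 and −90 from the start of transcription. The other 4 promoters hold 1 site each, between −55 and −31. Of the 17 members with a site 5 were called higher after UC-764864, and of the 20 without one also 5, with median log2 fold changes of 0.28 and 0.26. A match describes letters in the window and does not show that E2F was bound.

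After UC-764864, 11 of the 43 members were called higher and 0 lower, by edgeR's quasi-likelihood test at an adjusted p under 0.05. The 11 were MCM3, MCM6, MCM10, CDC45, GINS2, RFC2, POLA2, POLD3, DNMT1, CHAF1A and CHAF1B, and their folds were small, 1.31 to 1.48. Among all genes tested, 5.11% were called higher and 8.13% lower, against 25.6% and 0% of members. At an unadjusted p under 0.05, 23 members were higher and 1 lower, where 2011 and 2237 of all 13490 genes were. DESeq2 called 15 members higher and 1, RPA3, lower, where it called 856 and 1379 of all genes. The median log2 fold change of the 43 was 0.30, beside 0.01 for all genes. All 3 UC-764864 libraries lay above all 3 DMSO libraries for 24 members (55.8%), where 19.0% of all genes did so, and below them for 1 member, RPA3, where 17.0% of all genes did so. The count depended on which libraries were kept. Without UDI0051, UDI0053 or UDI0054, 0 of 43 were called, though 15, 20 and 17 were higher at an unadjusted p under 0.05, and 62, 166 and 94 of all genes were then called higher. Without UDI0052 CHAF1A alone was called, beside 2.12% of all genes called higher, and without UDI0056 6 of the 11 were, beside 3.71%. Without UDI0055 21 members, all 11 among them, were called higher and 1 lower, while the share of all genes called higher rose to 11.1%.

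**Figure D1:**
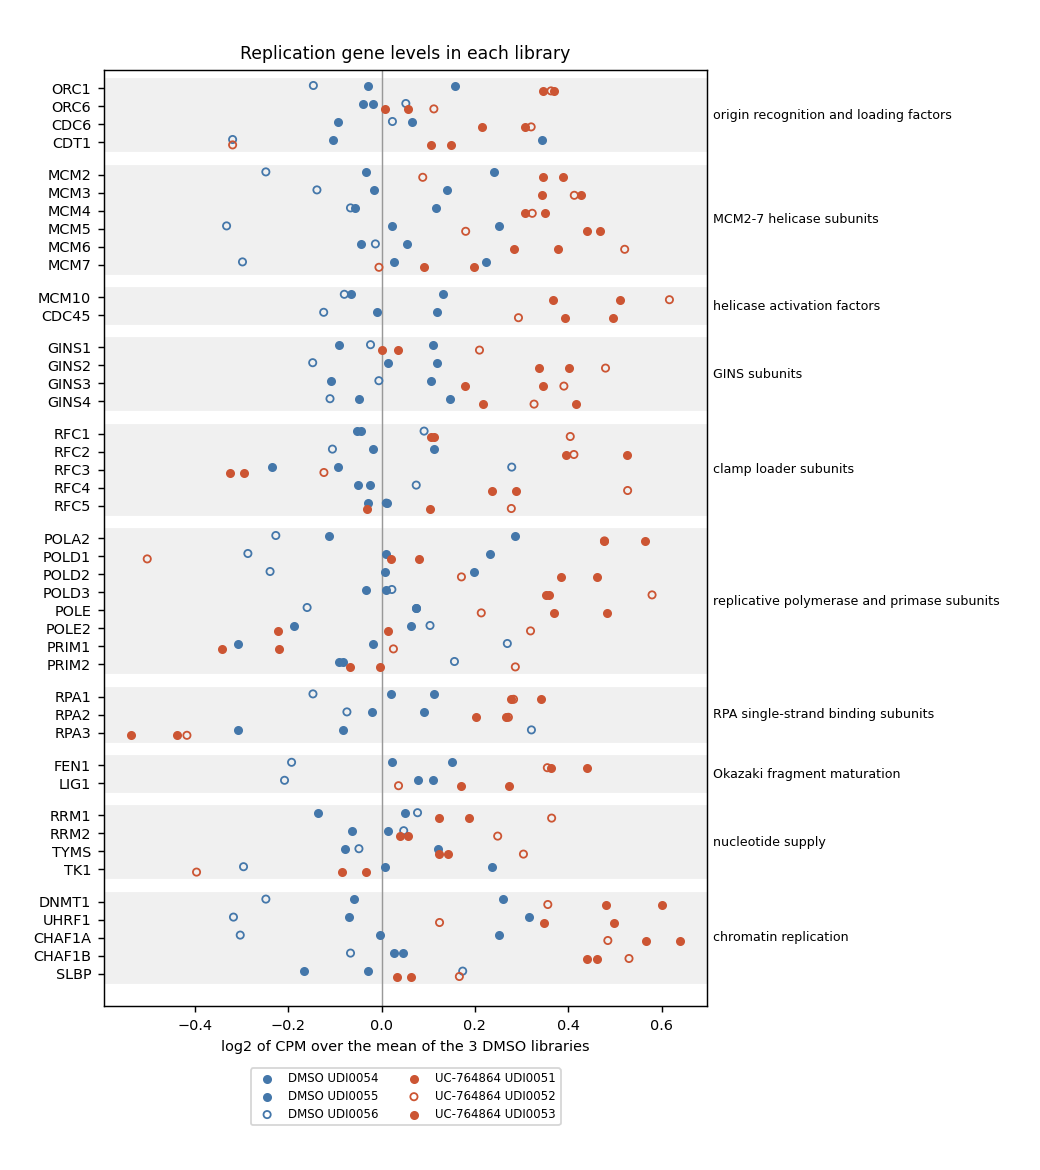
Level of each of the 43 genes in each library, as the log2 of its CPM over the mean of the 3 DMSO libraries, grouped by role (blue, DMSO; red, UC-764864; open circles, the low-GC libraries UDI0052 and UDI0056). The red points lie right of all blue points for 24 genes and left of them for RPA3.

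With a term for the 2 low-GC libraries in the fit, 27 members were called higher and 2, RFC3 and RPA3, lower, beside 17.3% and 17.5% of all genes. With each library's trend over transcript GC content removed, 20 were called higher and 1, RPA3, lower, beside 16.3% and 15.5% of the 11656 genes with a GC value. All 11 genes called in the comparison as run were among the 20 and among the 27. The log2 fold changes of MCM3, CDC45, GINS2 and RFC2 shrank by about or over 1.5 times with the trend removed, from 0.39, 0.40, 0.41 and 0.45 to 0.24, 0.24, 0.26 and 0.30, while those of MCM6, MCM10 and POLD3, of lower GC content, were 0.41, 0.50 and 0.45. With the low-GC term the median log2 fold change of the members stayed at 0.30. Removing the GC trend instead lowered it to 0.19, while the median of all genes with a GC value stayed at 0.01. The medians of the MCM2-7, GINS, RPA and Okazaki fragment groups, given below, became 0.22, 0.19, 0.12 and 0.14. Those of the origin, helicase activation, nucleotide supply and chromatin groups became 0.13, 0.37, 0.04 and 0.34. The clamp loader median rose from 0.21 to 0.28, and that of the polymerase and primase genes was 0.20, beside 0.21. Within the low-GC pair, UDI0052 over UDI0056, 36 of 43 members were positive with a median log2 ratio of 0.37, and among the other 4 libraries 36 were positive with a median of 0.26. A positive ratio in both was found for 35 members.

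**Figure D2:**
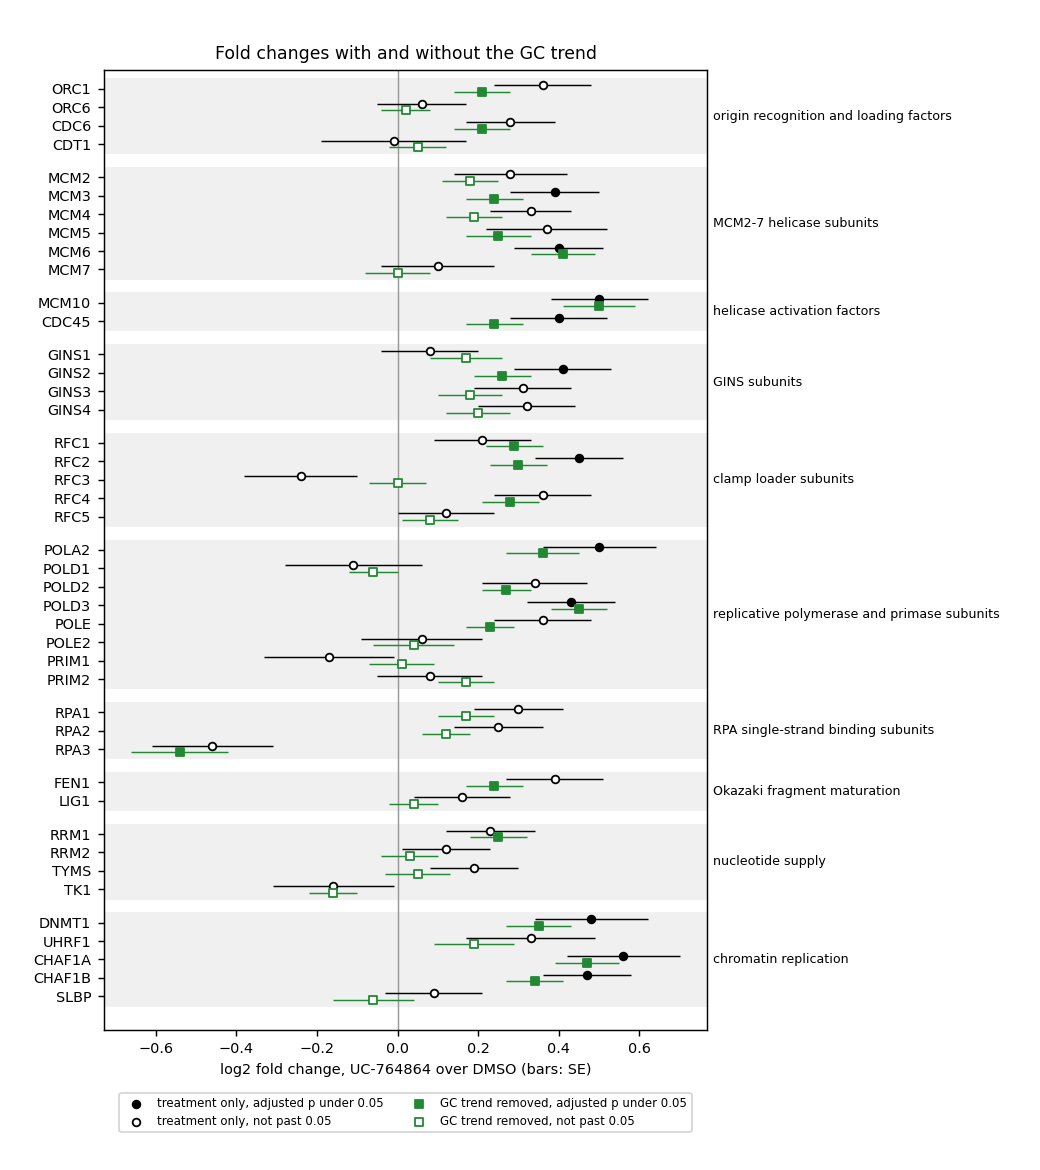
Log2 fold change of UC-764864 over DMSO for each gene, with its SE, from the treatment-only fit (circles) and with the GC trend removed (squares); filled symbols passed an adjusted p under 0.05. Values are largest for CHAF1A (0.56) and lowest for RPA3 (−0.46) in the treatment-only fit, and RFC3 moves from −0.24 to 0.00.

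Among the 4 members that mark origins and load the helicase, edgeR called 0, with 2 at an unadjusted p under 0.05. DESeq2 called 1, ORC1. The median log2 fold change of the 4 was 0.17, or 0.26 without UDI0055. ORC2 to ORC5 are not members and belong to the second list below. There ORC4 was called lower by edgeR (−0.77 ± 0.16). ORC3, ORC5 and ORC2 were at −0.24, −0.25 and 0.15 and were not called. ORC1, the origin recognition subunit that is degraded and rebuilt with each cycle, stood at 92.6, 92.2 and 91.1 CPM in the UC-764864 libraries and 70.3, 79.9 and 64.8 CPM in the DMSO libraries. Its groups did not overlap, but the fold change of 0.36 ± 0.12 (SE) missed the threshold (edgeR adjusted p = 0.0608, range over alternatives 0.00582 to 0.225). CDC6, the ATPase that closes the loading complex, stood at 114, 115 and 107 CPM in the UC-764864 libraries and 86.3, 96.3 and 93.6 CPM in the DMSO libraries. Here too every treated library was above every control (0.28 ± 0.11, adjusted p = 0.101). The smallest subunit, ORC6, was nearly level (0.06 ± 0.11). CDT1, the loading partner restrained by geminin, ranged from 95.0 to 131 CPM after UC-764864 and from 95.0 to 150.4 CPM after DMSO, with a fold change of −0.01 ± 0.18. Its transcript is 64.9% GC and its lowest value in each group was in the low-GC library.

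The MCM2-7 helicase subunits form the ring that unwinds DNA. All 6 were positive, with a median of 0.35 and 2 of 6 called. MCM6 stood at 414, 458 and 388 CPM in the UC-764864 libraries and 309.6, 332 and 316 CPM in the DMSO libraries. No treated library came below 388 CPM and no control above 332 CPM, a 1.32-fold rise (0.40 ± 0.11, adjusted p = 0.0342). MCM3 stood at 532, 527 and 502 CPM in the UC-764864 libraries and 391, 437 and 359.7 CPM in the DMSO libraries. It rose 1.31-fold with no overlap (0.39 ± 0.11, adjusted p = 0.0369). Both calls were lost with library size as the only scaling, among other settings, and the adjusted p over all alternatives ran from 0.00196 to 0.145 for MCM6 and from 0.00325 to 0.173 for MCM3. MCM4, MCM5 and MCM2 had log2 fold changes of 0.33, 0.37 and 0.28 that did not pass (adjusted p = 0.0517, 0.117 and 0.192). The groups of MCM4 did not overlap, and those of MCM2 and MCM5 did. MCM7 had the lowest value of the 6, 0.10 ± 0.14, and at −0.00 with the GC trend removed.

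Per kilobase of the longest coding transcript in GENCODE v29, DMSO levels of the helicase ran from MCM4 at 237 ± 17.2 CPM per kb (SD, n = 3) through MCM7 at 161 ± 28.7, MCM3 at 123 ± 12.1, MCM2 at 90.6 ± 15.5 and MCM6 at 85.4 ± 3.04 to MCM5 at 75.7 ± 15. The ranges of MCM2, MCM6 and MCM5 overlapped, but MCM2 was above MCM5 in each of the 6 libraries, with CPM ratios of 1.18, 1.22 and 1.30 in the DMSO libraries and transcripts of 3622 and 3534 bases. MCM4 was also the highest of the 43 members on this scale. With the union of all exons as the length, MCM4 was again highest and MCM5 lowest (142 and 36.5 CPM per kb), and MCM2 and MCM6 changed places. These are levels of RNA and not of the assembled ring.

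The pair of helicase activation factors were both called. MCM10, which binds the assembled helicase and is needed for origin DNA to unwind, stood at 92.8, 99.8 and 84.0 CPM in the UC-764864 libraries and 62.2, 71.3 and 61.6 CPM in the DMSO libraries. Every treated library exceeded every control by at least the gap from 71.3 to 84.0 CPM. The fold change was 0.50 ± 0.12 (edgeR adjusted p = 0.0215, range over alternatives 0.00149 to 0.103). With the GC trend removed its fold change was 0.50. CDC45, the helicase cofactor that is limiting for origin firing in many cells, stood at 111, 96.8 and 104 CPM in the UC-764864 libraries and 85.8, 78.5 and 72.5 CPM in the DMSO libraries. It rose 1.32-fold (0.40 ± 0.12, adjusted p = 0.0446), and this call was lost with RLE factors, library size scaling, either other filter, all rows kept, and each single library left out except UDI0055 (range 0.00216 to 0.232).

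GINS is a complex of 4 small proteins that locks CDC45 onto the helicase, and 1 of its 4 genes was called, with a median of 0.32. GINS2 stood at 69.3, 73.2 and 66.3 CPM in the UC-764864 libraries and 53.0, 57.0 and 47.4 CPM in the DMSO libraries. Its groups did not overlap (0.41 ± 0.12, adjusted p = 0.0426, range over alternatives 0.00401 to 0.169). GINS4 stood at 125, 118 and 109 CPM in the UC-764864 libraries and 90.6, 104 and 86.8 CPM in the DMSO libraries. That was also without overlap, but the fold change of 0.32 ± 0.12 did not pass (adjusted p = 0.0867). GINS3, the least abundant by CPM, had 28.4 to 32.9 CPM after UC-764864 and 23.3 to 27.0 after DMSO (0.31 ± 0.12, adjusted p = 0.115). GINS1 was nearly level (0.08 ± 0.12), and its groups overlapped.

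The 5 clamp loader genes differed in sign: RFC2 was called, RFC1, RFC4 and RFC5 were positive, and RFC3 was negative. Their median was 0.21, or 0.08 without UDI0052 and 0.28 with the GC trend removed. RFC1 is the large subunit and RFC2 to RFC5 are small ATPase subunits that complete the ring. RFC2 stood at 81.9, 75.7 and 74.8 CPM in the UC-764864 libraries and 56.2, 61.5 and 52.9 CPM in the DMSO libraries. The gap between the groups was wider than the range within either. The fold change was 0.45 ± 0.11 (edgeR adjusted p = 0.0281, range over alternatives 0.00142 to 0.163). RFC4 stood at 67.0, 79.1 and 64.7 CPM in the UC-764864 libraries and 54.0, 53.0 and 57.8 CPM in the DMSO libraries. These did not overlap either, at 0.36 ± 0.12 (adjusted p = 0.07). RFC3 had a negative value, with 114 to 163 CPM in DMSO libraries against 107 to 123 CPM in UC-764864 libraries (−0.24 ± 0.14, adjusted p = 0.26), and its highest value was in the low-GC library UDI0056. Its transcript has the lowest GC content of all members, 39.1%, and with the GC trend removed its fold change was 0.00. With the term for the low-GC libraries it was −0.23 and was called lower. Per kilobase of the longest coding transcript, RFC3 was the highest of the 5 after DMSO at 55.9 ± 10.6 CPM per kb, ahead of RFC4 at 37.9 ± 1.75 and RFC2 at 33.6 ± 2.57. After UC-764864 the 3 stood at 47.2 ± 3.61, 48.5 ± 5.35 and 45.7 ± 2.27 on this scale, with overlapping ranges. The order depended on the length used. With the union of all exons, RFC3 was again highest after DMSO at 46.7 CPM per kb. RFC2 and RFC4 changed places there, at 25.7 and 18.3. After UC-764864 RFC4 was then the lowest of the 3, at 23.4 beside 39.4 for RFC3.

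Of 8 polymerase and primase genes, 2 were called higher, with a median of 0.21. POLA2, the regulatory subunit of the priming polymerase alpha, stood at 71.3, 67.1 and 67.1 CPM in the UC-764864 libraries and 44.6, 58.8 and 41.2 CPM in the DMSO libraries. Its lowest treated value was above its highest control value, that of UDI0055. It rose 1.42-fold (0.50 ± 0.14, edgeR adjusted p = 0.0386, range over alternatives 0.00309 to 0.152). POLD3, an accessory subunit of the lagging-strand polymerase delta, stood at 74.4, 87.1 and 74.7 CPM in the UC-764864 libraries and 57.0, 58.7 and 59.2 CPM in the DMSO libraries. Controls were within 3 CPM of each other (0.43 ± 0.11, edgeR adjusted p = 0.0309, range over alternatives 0.000588 to 0.119). The value with the GC trend removed was 0.45. The other polymerase delta subunits had values of both signs. POLD2 was at 0.34 ± 0.13 and POLD1, the catalytic subunit, at −0.11 ± 0.17, with overlapping groups for both (adjusted p = 0.106 and 0.687). For the leading-strand polymerase epsilon, the catalytic gene POLE had 0.36 ± 0.12 without overlap (adjusted p = 0.0675) and its partner POLE2 0.06 ± 0.15 with overlap. The primase genes PRIM1 and PRIM2 were at −0.17 ± 0.16 and 0.08 ± 0.13, both overlapping.

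RPA is the trimer that coats single-stranded DNA, and here the sign of its smallest subunit differed from the other two. RPA3 stood at 39.6, 43 and 42.4 CPM in the UC-764864 libraries and 54.2, 46.4 and 71.7 CPM in the DMSO libraries. All treated libraries were below all controls, the one such case among the 43, and the highest control was UDI0056. The fold change of −0.46 ± 0.15 missed the threshold (edgeR adjusted p = 0.0682) and was −0.27 without UDI0056. It was past the threshold with DESeq2, with no filter, without UDI0055, with the low-GC term and with the GC trend removed (range over alternatives 0.00437 to 0.232), and its value with the GC trend removed was −0.54. RPA1, the large DNA-binding subunit, stood at 216, 207 and 206 CPM in the UC-764864 libraries and 173, 184 and 154 CPM in the DMSO libraries. It lay above controls in all 3 libraries (0.30 ± 0.11, adjusted p = 0.0901). RPA2, the subunit that checkpoint kinases phosphorylate, was at 0.25 ± 0.11 (adjusted p = 0.142), also without overlap. None of the 3 was called by edgeR, although all had an unadjusted p under 0.05, and their median was 0.25. In GENCODE v29 RPA3 exons share 70 bases with those of an opposite-strand gene, UMAD1, and whether the counts used strand is not given in the sources used here. The antisense row RPA3-AS1 had 12.2, 14.9 and 13.3 CPM after UC-764864 and 15.2, 17.7 and 23.7 CPM after DMSO, and its part in the RPA3 values was not tested.

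Of the pair of genes that finish Okazaki fragments, edgeR called 0 (1 at an unadjusted p under 0.05, and FEN1 by DESeq2), and the median was 0.27, or 0.18 without UDI0056. FEN1, the flap nuclease, stood at 192, 181 and 182 CPM in the UC-764864 libraries and 144, 157 and 124 CPM in the DMSO libraries. Groups did not overlap and the fold change was 0.39 ± 0.12, just short of the threshold (adjusted p = 0.0509, range 0.00323 to 0.221). LIG1, the ligase that seals the nick, stood at 222, 189 and 207 CPM in the UC-764864 libraries and 194, 199 and 159.5 CPM in the DMSO libraries. Here UDI0052 lay among the controls (0.16 ± 0.12, adjusted p = 0.39).

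Of the 4 genes of nucleotide supply, 0 were called by edgeR or DESeq2, 0 had an unadjusted p under 0.05, and the median was 0.15, or 0.06 without UDI0052 and 0.04 with the GC trend removed. RRM1, the large subunit of ribonucleotide reductase, stood at 276, 312 and 264 CPM in the UC-764864 libraries and 221, 251 and 256 CPM in the DMSO libraries. Its lowest treated value was a little above its highest control (0.23 ± 0.11, adjusted p = 0.198). TYMS, the thymidylate synthase, stood at 327, 370.2 and 331 CPM in the UC-764864 libraries and 284, 326 and 290.0 CPM in the DMSO libraries. Its groups were separated by about 1 CPM (0.19 ± 0.11, adjusted p = 0.256), and its exons overlap those of the opposite-strand gene ENOSF1. RRM2, the small reductase subunit whose level follows S phase, was at 0.12 ± 0.11 and TK1, the S phase thymidine kinase, at −0.16 ± 0.15, both with overlap (adjusted p = 0.484 and 0.493). These p-values do not show that levels were equal.

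Genes that copy chromatin behind the fork had a median of 0.47, and 3 of 5 were called. CHAF1A, the large subunit of the CAF-1 histone chaperone that PCNA recruits, stood at 173, 155 and 164 CPM in the UC-764864 libraries and 111, 132 and 90.0 CPM in the DMSO libraries. The treated libraries spanned a narrower range than the controls, whose lowest was UDI0056. The fold change was 0.56 ± 0.14 (edgeR adjusted p = 0.0256, range over alternatives 0.000746 to 0.111). CHAF1B, the second CAF-1 subunit, stood at 42.8, 44.9 and 42.2 CPM in the UC-764864 libraries and 31.7, 32.1 and 29.7 CPM in the DMSO libraries. Within each group its libraries agreed within 3 CPM (0.47 ± 0.11, edgeR adjusted p = 0.0212, range over alternatives 0.00122 to 0.107). DNMT1, which copies CpG methylation to the new strand, stood at 502, 424 and 462 CPM in the UC-764864 libraries and 318, 396 and 279 CPM in the DMSO libraries. All treated libraries were above all controls, the nearest pair being 424 and 396 CPM. It rose 1.40-fold (0.48 ± 0.14, edgeR adjusted p = 0.0408, range over alternatives 0.00188 to 0.178). UHRF1, which brings DNMT1 to hemimethylated DNA, was at 0.33 ± 0.16 with overlapping groups (adjusted p = 0.183). SLBP, which binds the stem-loop of histone mRNAs, was at 0.09 ± 0.12.

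Ratios between subunits of one complex within a library do not depend on how libraries are scaled. In all, 35 pairs within MCM2-7, GINS, RFC, RPA and ribonucleotide reductase were compared, and 16 had ratios that did not overlap between treatments. With 3 libraries against 3 the exact two-sided permutation test cannot go below p = 0.1, which these 16 reached, with an adjusted p of 0.219 over the 35. The other 19 overlapped, 11 of the 15 within MCM2-7 among them, and the pairs given here were chosen after their values were seen. RFC3, GINS1, RPA3 and MCM7 each recur among the 16, which are therefore not separate shifts. The share among pairs of other genes was not worked out. Among all single genes, 19.0% lay above and 17.0% below without overlap. The RPA1 to RPA3 ratio was 5.46, 4.82 and 4.87 in the UC-764864 libraries and 3.19, 3.98 and 2.15 in the DMSO libraries. Its log2 difference of 0.74 was 0.71 with the GC trend removed. The RFC2 to RFC3 ratio was 0.748, 0.614 and 0.698 in the UC-764864 libraries and 0.492, 0.489 and 0.325 in the DMSO libraries. Its difference of 0.68 was 0.29 with the GC trend removed. The MCM5 to MCM7 ratio was 0.650, 0.613 and 0.686 in the UC-764864 libraries and 0.538, 0.549 and 0.527 in the DMSO libraries, a log2 difference of 0.27 in genes of like GC content, 56.6% and 57.6%. The MCM6 to MCM7 ratio was 0.727, 0.926 and 0.734 in the UC-764864 libraries and 0.612, 0.572 and 0.783 in the DMSO libraries, which overlapped. The GINS1 to GINS2 ratio was 1.25, 1.36 and 1.33 in the UC-764864 libraries and 1.53, 1.63 and 1.79 in the DMSO libraries. That difference, −0.33, shrank to −0.10 with the GC trend removed. For RRM1 over RRM2 the log2 difference was 0.11.

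**Figure D3:**
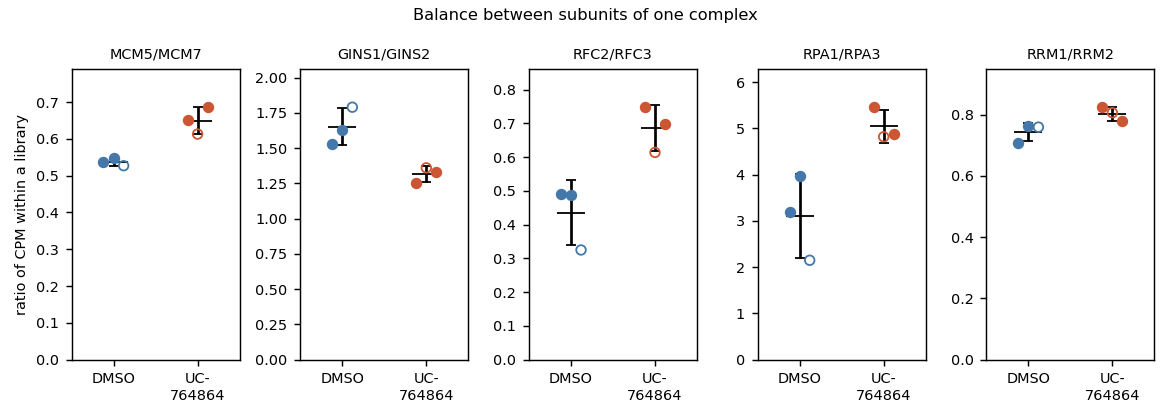
Ratio of the CPM of 2 subunits of one complex in each library, for 5 pairs (points, libraries; open circles, the low-GC libraries; bars, mean and SD of 3). The 5 pairs were chosen from the 16 of 35 whose groups do not overlap, and RPA1/RPA3 is 4.82 to 5.46 after UC-764864 against 2.15 to 3.98 after DMSO.

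A second list holds 43 other replication genes, of which 42 were tested (POLA1 lies in the rows left out). Of these 3 were called higher (7.14%, beside 5.11% of all genes) and 5 lower (11.9%, beside 8.13%), with a median of 0.07. Called higher were CLSPN, the checkpoint adaptor claspin, at 0.84 ± 0.13, NASP, a histone H1 and H3 chaperone, at 0.52 ± 0.11, and TIMELESS, a fork protection factor, at 0.47 ± 0.14 (adjusted p = 0.0047, 0.016 and 0.0417). CLSPN stood at 83.7, 94.5 and 73.2 CPM in the UC-764864 libraries and 46.2, 51.0 and 43.4 CPM in the DMSO libraries, a fold above that of any of the 43. Called lower were ORC4, an origin recognition subunit, at −0.77 ± 0.16, the deoxycytidine kinase gene DCK at −0.70 ± 0.18, RNASEH2B at −0.44 ± 0.12, RRM2B, the p53-inducible reductase subunit, at −0.60 ± 0.17, and ASF1A, a histone chaperone, at −0.49 ± 0.15. TIMELESS, ASF1A and every gene of this list named without a call, PCNA among them, were named after their values were seen. The GC content of transcripts moved with the direction: 34.9% to 42.3% for the 5 called lower, and 44.8% to 51.7% for the 3 called higher. With the GC trend removed ORC4 was at −0.43, DCK at −0.42, RNASEH2B at −0.38, RRM2B at −0.16 and ASF1A at 0.05. The calls of RRM2B and ASF1A were then lost. With the term for the low-GC libraries all 5 were called lower, RRM2B at −0.58 and ASF1A at −0.48. PCNA, the sliding clamp that UBE2N helps to ubiquitinate, was at 0.25 ± 0.10 and did not pass (edgeR adjusted p = 0.131). Its groups did not overlap, and it passed with the low-GC term (edgeR adjusted p = 0.0239).

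**Figure D4:**
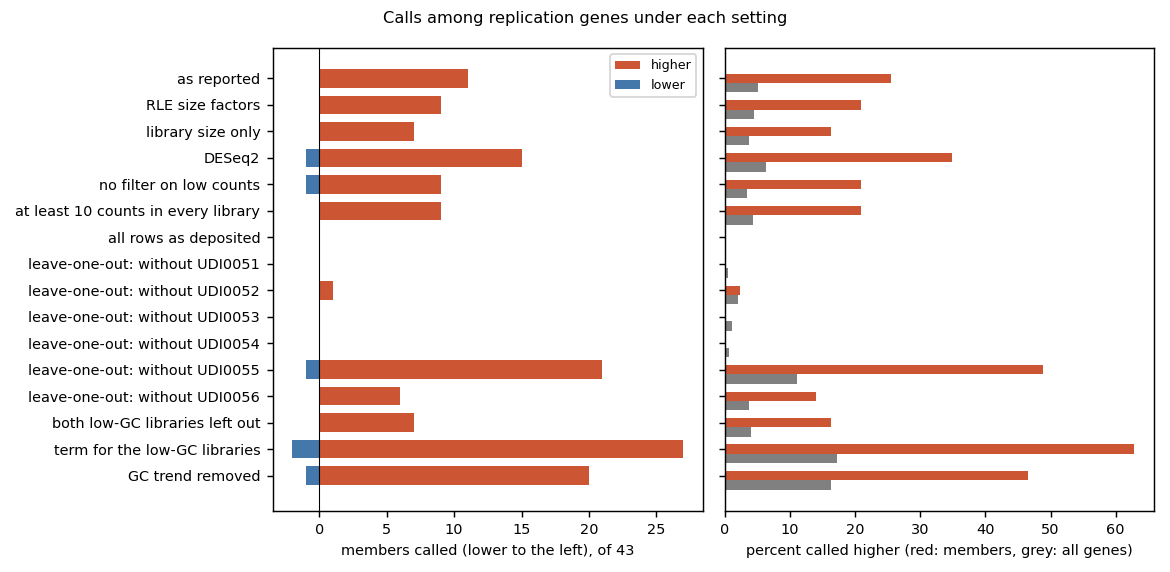
Left, members called higher (red) or lower (blue, drawn to the left of 0) at an adjusted p under 0.05 in the comparison as reported and under each other setting; right, the percent called higher of the 43 members (red) and of all genes tested (grey). Members called higher run from 0 without UDI0051 to 27 with the low-GC term, and those of all genes from 0.157% to 17.3% higher.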

How the data were processed

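The libraries were poly(A) RNA sequenced as paired reads of 75 bp, per the labels' protocols. The authors deposited raw whole-number counts per gene. The submitters' processing notes name FastQC 0.11.7 and HISAT2 2.0.5, featureCounts 1.5.2 and the build GRCh37. The annotation release, like the strand setting, is not given in the sources used here. Reads of genes that overlap on opposite strands may therefore be mixed, and 9 members share 100 or more exon bases with such a gene in GENCODE v29 (FEN1, GINS3, GINS4, LIG1, MCM2, MCM7, PRIM1, RFC5 and TYMS). Columns of the count table name the library and carry no replicate number.

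The members, gene lists and role groups were chosen with earlier results of these data known. Rows at 0 in UDI0055 alone, in unbroken runs, were read as missing. The other 52839 rows were fitted in R 4.3.3 with edgeR 4.0.16 (filterByExpr, TMM factors 0.978 to 1.03, glmQLFit and glmQLFTest, treatment as the only term). Benjamini-Hochberg adjustment ran over 13490 genes. The procedure was tested on simulated data with fold changes larger than those of the members and no GC difference between libraries. That test does not show how well folds as small as those of the members are recovered. CPM uses TMM-scaled library sizes, and SE is the log2 fold change over the square root of F. GC content and lengths come from GENCODE v29 (GRCh38) by symbol, and GC-rich genes are the top 25% by GC content. Each library's value is given for called members and for those with the 2 smallest p in each role group. Other replication genes are named up to 6 in order of p, and any others were named after their values were seen. Alternatives were RLE factors, library size alone, DESeq2 1.42.0, 2 filters, all rows, each library left out, the low-GC libraries left out or given a term, and GC trends removed. The floor of 3 counts covers counting error only.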

Additional observations from a re-analysis of the deposited data

How the results depend on the processing

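No paired analysis was possible because the columns of the count table carry none of the replicate numbers in the labels. The number of members called, 11 in all, was 7 with library size only, 0 with all rows as deposited (22 higher at an unadjusted p under 0.05), 7 with both low-GC libraries left out, 29 with the term for them and 21 with the GC trend removed. Members called higher, 11, were 7, 0, 7, 27 and 20 under these settings. Of all genes, 5.11% were called higher in the comparison as run, and 3.77%, 0.157%, 4.07%, 17.3% and 16.3% under these settings. With all rows as deposited, only 22 of 14027 genes were called higher. Members called lower, 0, were 1 with DESeq2, with no filter and with the GC trend removed, and 2 with the low-GC term. In the same order, 1379 of 13490, 1676 of 24326, 1802 of 11656 and 2360 of 13490 genes were called lower. Leaving out each library in turn gave 0 to 22 members called, 0 to 21 higher and 0 to 1 lower, and the median log2 fold change of 0.30 ranged from 0.24 to 0.36. That median was 0.19 with the GC trend removed. The medians of all 10 role groups, which hold members only, stayed above 0 under every alternative run. Other replication genes called, 8, were 0 with all rows as deposited, 22 with the low-GC term, 14 with the GC trend removed and 1 to 12 with a library left out. The share of member promoter windows with an E2F site, 38.3%, was 66.0% with the 7-base core, beside 13.0% of all windows.

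Differences in subunit ratios with each library left out ran from 0.48 to 0.78 for RFC2 over RFC3 and 0.50 to 0.95 for RPA1 over RPA3. They ran from −0.38 to −0.27 for GINS1 over GINS2, 0.17 to 0.42 for MCM6 over MCM7 and 0.08 to 0.13 for RRM1 over RRM2. Of these pairs only MCM6 over MCM7 had overlapping groups. For the others the sign could not change when a single library was left out, so their kept sign is no test. Some genes changed sign, and no member called in the comparison as run was among them. With the GC trend removed these were, among the members, CDT1 (0.05 ± 0.07), PRIM1 (0.01 ± 0.08) and SLBP (−0.06 ± 0.1), each within its SE. MCM7 (−0.00) and RFC3 (0.00) were then level, with no sign to read. Of the other replication genes, ASF1A, called lower in the comparison as run, also changed sign (0.05). So did some that were not called, such as MTBP (−0.27 to 0.13) and CHTF8 (0.03 to −0.11). With each library left out in turn, CDT1 ran from −0.14 to 0.20, MCM7 from −0.03 to 0.22, GINS1 from −0.01 to 0.14, POLD1 from −0.23 to 0.02, POLE2 from −0.12 to 0.18 and PRIM2 from −0.06 to 0.16. Without both low-GC libraries MCM7 (−0.01), GINS1 (−0.02) and POLE2 (−0.07) were negative. The cause of these changes was not tested, and the fits with libraries left out also hold fewer libraries.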
